A study of Mus musculus with 47 samples.

Results

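The comparison described here is brown fat of tumour-bearing mice given 3P10 against brown fat of mice without a tumour (NTB). It takes 12 of the 47 libraries of the study, 6 per group, chosen by their titles alone. All mice were C57Bl6, no genotype beyond the strain is given, and tissue was taken on day 21 after tumour inoculation. Mice of the 3P10 group carried tumours of HT1080, a human fibrosarcoma cell line, and received the GFRAL antibody 3P10 at 3 mg/kg each week from day 0. A further group, IgG1, carried the same tumours and received a control antibody at the same dose and times, and its 5 brown fat libraries entered the same fit. The labels give NTB mice neither a tumour nor an antibody, so 3P10 against NTB joins the tumour, an antibody injection and the block of GFRAL. The immune status of mice that bore human tumour cells, their food intake and their weights are not given in the labels. The question was what in brown fat stays different from NTB, or passes beyond it, when GFRAL is blocked in a tumour-bearing mouse.

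GFRAL is the receptor for the circulating factor GDF15, is made in neurons of the hindbrain and signals with the kinase RET. Through it GDF15 lowers appetite and body weight. Brown fat burns fatty acids and glucose in densely packed mitochondria, where uncoupling protein 1 lets the energy of the respiratory chain go to heat, and a dense net of capillaries brings oxygen and fuel and carries the heat away. Noradrenaline from sympathetic nerves drives it through beta-adrenergic receptors.

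Library totals in brown fat ran from 0.998 to 2.46 M counts in 3P10 (M for mega, median 1.2) and from 0.799 to 1.35 M in NTB (median 1.09). All 8 brown adipocyte markers were read in every group, and their summed level ran from 20400 to 26890 CPM in 3P10 and from 16500 to 21720 CPM in NTB. CPM gives the counts of a gene per M counts, with library totals scaled by TMM factors. The library numbers follow the groups, and an effect of their order cannot be told apart from that of group. Gfral had 0 reads in the 17 brown fat libraries, which allows up to 1.22 to 3.76 CPM per library, and Gdf15 and Ret had 25 and 22 reads in all, too few for a test. Summed skeletal muscle markers ran from 44.8 to 2804 CPM in 3P10 (median 795) and from 991 to 3633 CPM in NTB (median 1576). All 16 muscle markers had log2 fold changes below 0 (-1.22 to -0.51), and they did not pass the test. With their sum as a covariate, 323 genes were called, 278 of them among those called without it. Some genes of the naming rule whose calls are described below lost them under that covariate (adjusted p = 0.05 to 0.0906). They were Atp5d, Usmg5, Otop1, Acacb, Flt1, Egfl7, Dll4, Grb10, Cd209f, Retnla, Lyve1, Pfkl, Tpi1 and Dnajb9. The lowest of these adjusted p values, that of Otop1, was 0.05 after rounding.

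Of 24391 genes listed, 8711 passed the low-count filter and were tested. Of these, 501 (5.75%) were called in 3P10 against NTB by edgeR's quasi-likelihood test at a Benjamini-Hochberg adjusted p under 0.05. The 264 called higher (3.03% of genes tested) had a median log2 fold change of 0.49, and the 237 called lower (2.72%) one of -0.61. The changes were small, and 4 of the higher and 21 of the lower genes passed 2-fold. In 186 of the called genes every 3P10 library lay on 1 side of every NTB library, while such separation held for 261 genes, 3.00% of all tested, of which 140 were higher (1.61%) and 121 lower (1.39%). Of the 501, 133 were called whichever single library was left out. Single libraries moved the count. Leaving out NTB replicate 4 gave 172 genes, NTB replicate 1 gave 244 and NTB replicate 3 gave 286. Leaving out 3P10 replicate 6 gave 188 genes, 3P10 replicate 3 gave 210 and 3P10 replicate 4 gave 290. In bulk tissue, fewer or more cells of a type and less or more RNA per cell cannot be told apart, which holds for all groups of genes below.

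**Figure D1:**
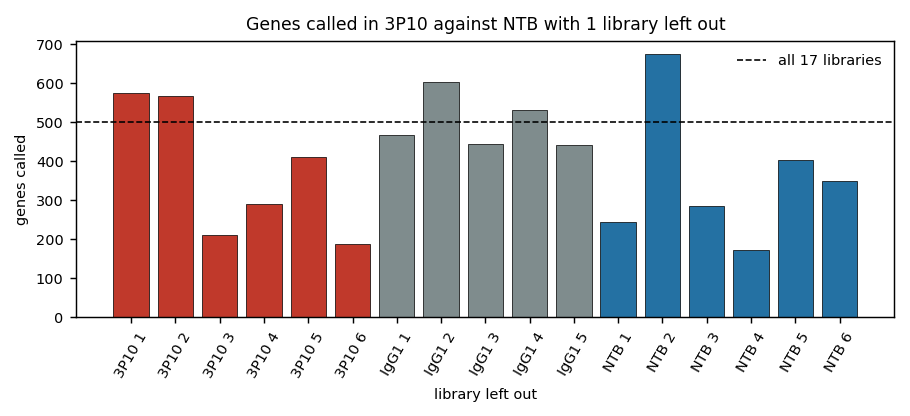
Number of genes called in 3P10 against NTB (y axis) after leaving out the library named on the x axis, with bars in red for 3P10, grey for IgG1 and blue for NTB and a dashed line at the 501 genes called with all 17 libraries. Without NTB replicate 4 the count was 172, and without NTB replicate 2 it was 675.

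Genes of the mitochondrial matrix and inner membrane were among those called higher. All changes below are log2 values, and SE is the standard error of each. Of all genes tested 3.03% were called higher, a share that stands beside each count of risen list members below. In the citric acid cycle and pyruvate dehydrogenase list 7 of 25 rose, with a median log2 fold change over the list of 0.20 against -0.0022 over all genes tested. Idh3b, a subunit of the isocitrate dehydrogenase of the cycle, ran from 509 to 802 CPM in 3P10 (median 669) and from 350.4 to 559.7 CPM in NTB (median 382). The highest NTB library, replicate 2, reached into the 3P10 range and the other 5 lay below it. Idh3b rose by 0.69, SE 0.13, adjusted p = 0.00650. Dlst, the transferase of the 2-oxoglutarate dehydrogenase complex, ran from 779 to 913 CPM in 3P10 (median 813) and from 609 to 720.3 CPM in NTB (median 655), with no overlap, and rose by 0.33 (SE 0.07, adjusted p = 0.0154). Pdhb of pyruvate dehydrogenase rose by 0.55 and Sucla2 of succinyl-CoA synthetase by 0.43. Mdh1, the cytosolic malate dehydrogenase that feeds reducing power toward mitochondria, ran from 762 to 1004 CPM in 3P10 (median 911) and from 502 to 650.0 CPM in NTB (median 554). Every 3P10 library lay above every NTB library, and Mdh1 rose by 0.70, SE 0.11, adjusted p = 0.00230.

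In the respiratory chain 5 of 35 complex I subunits rose, as did 1 of 4 of complex II, 3 of 9 of complex III and 4 of 16 of complex IV with cytochrome c. The medians of these lists were 0.13, 0.16, 0.17 and 0.17, and their other members did not pass. The complex IV subunit gene Cox6a1 ran from 1643 to 1838 CPM in 3P10 (median 1758) and from 1232 to 1433 CPM in NTB (median 1354). The groups did not overlap, and Cox6a1 rose by 0.39, SE 0.07, adjusted p = 0.00508. Another subunit gene of that complex, Cox8a, ran from 434 to 765 CPM in 3P10 (median 643) and from 254 to 496 CPM in NTB (median 315), and rose by 0.81, SE 0.16, adjusted p = 0.00914. In Cox8a the groups overlapped, since NTB replicate 2 lay just above the lowest 2 3P10 libraries. Ndufs1, the large iron-sulfur subunit of complex I, rose by 0.36 (SE 0.08), and Sdha, the flavoprotein of complex II, by 0.34 (SE 0.07). ATP synthase went both ways, with Atp5f1 (0.43) and Usmg5 (0.81) higher and Atp5d lower at -0.30, SE 0.08, adjusted p = 0.0384, among 16 subunits with a median of 0.034. The calls of Atp5d and Usmg5 ended without some single libraries, and Atp5d reached adjusted p = 0.0948 without 3P10 replicate 6.

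Some genes that build the chain rose as well. 1110001J03Rik, which RefSeq names Fmc1 and which helps assemble ATP synthase, had the smallest adjusted p of the higher genes. It ran from 475 to 694 CPM in 3P10 (median 598) and from 273 to 398 CPM in NTB (median 331), without overlap, and rose by 0.79, SE 0.11, adjusted p = 0.00168. Fam173b (RefSeq Atpsckmt), which methylates a subunit of ATP synthase, rose by 0.83. Coq3, a methyltransferase of coenzyme Q synthesis, ran from 70.6 to 92.2 CPM in 3P10 (median 84.1) and from 39.3 to 60.8 CPM in NTB (median 53.5), again without overlap, and rose by 0.70 (SE 0.12, adjusted p = 0.00508). Chchd10, a protein of the space between the mitochondrial membranes, ran from 799 to 1070 CPM in 3P10 (median 975) and from 546 to 749 CPM in NTB (median 574), and rose by 0.63 (SE 0.10, adjusted p = 0.00230). Among complex IV assembly genes 3 of 18 rose, namely Higd2a (0.51), Cox18 (0.68) and the haem A synthase gene Cox15 (0.97, adjusted p = 0.0269). The Cox15 call ended without NTB replicates 1, 3 or 4 or 3P10 replicates 4 or 6, with an adjusted p of up to 0.0702.

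Protein import, iron-sulfur and ribosome genes of the organelle also held calls in that direction. These lists, except that of the mitochondrial ribosome, were drawn up after the calls had been seen, as was the list of complex IV assembly genes. Of 25 import genes 7 rose, and the list median was 0.31. Mtx2 (metaxin 2, of the outer membrane) ran from 151 to 228 CPM in 3P10 (median 211) and from 83.4 to 160.2 CPM in NTB (median 111.6), and rose by 0.75, SE 0.14, adjusted p = 0.00650. Timm10, a chaperone of the space between the membranes, ran from 87.1 to 117 CPM in 3P10 (median 107) and from 47.5 to 83.2 CPM in NTB (median 62.4), and rose by 0.69, SE 0.13, adjusted p = 0.00650. The groups overlapped in Mtx2, where NTB replicates 2 and 5 lay above 3P10 replicate 1, and were apart in Timm10. Of 22 iron-sulfur and haem genes 9 rose, with a median of 0.36, among them Fam96a (RefSeq Ciao2a) at 0.67, Isca2 at 0.45 and Fech, which inserts the iron into haem, at 0.37. The calls of Isca2 and Fech ended without at least 1 single library. Of 73 mitochondrial ribosomal protein genes 8 rose, with a median of 0.12. Mrpl36 of that ribosome ran from 45.4 to 60.4 CPM in 3P10 (median 52.6) and from 18.4 to 36.8 CPM in NTB (median 31.5), without overlap, and rose by 0.83, SE 0.18, adjusted p = 0.0140. Of 70 cytosolic ribosomal protein genes 1 rose, and their median was -0.012.

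**Figure D2:**
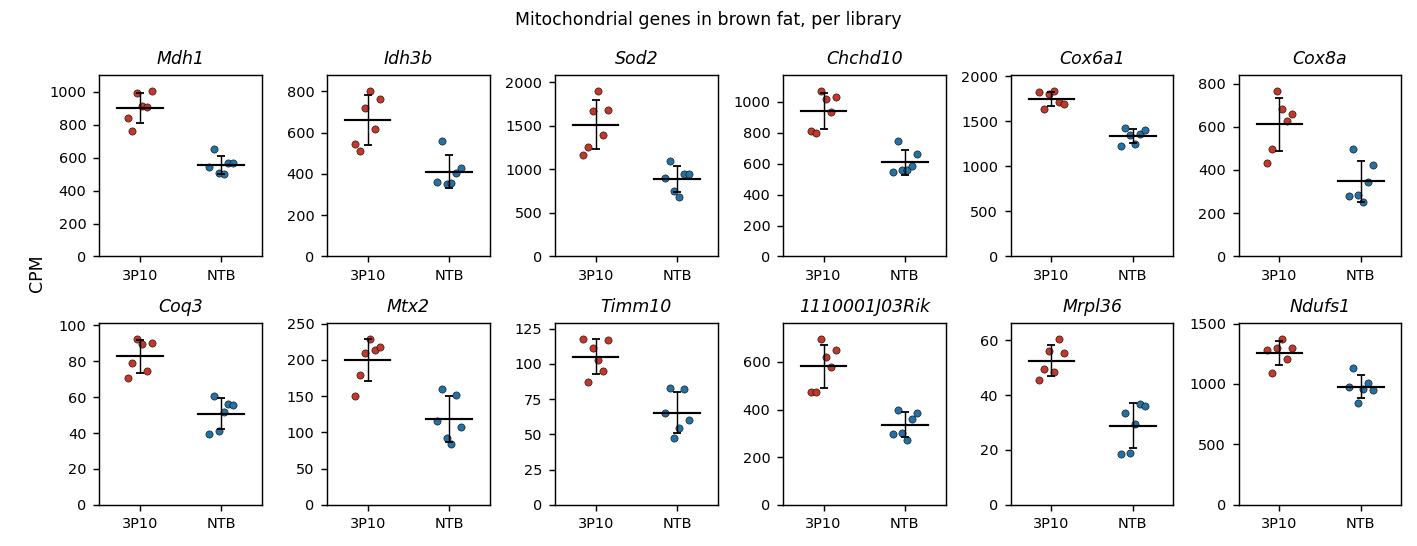
Level in CPM (y axis, from 0) of 12 genes in each of the 6 3P10 libraries (red) and 6 NTB libraries (blue). The genes are mitochondrial except Mdh1, whose enzyme is cytosolic. Lines lie at the mean, with bars of 1 SD. In Mdh1 all 3P10 points lie at 762 CPM or more and all NTB points at 650.0 CPM or less, while in Idh3b the highest NTB library, at 559.7 CPM, overlaps the 3P10 libraries.

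Promoters of 3 of these genes are shown. They were picked among called-higher mitochondrial genes that kept their call without any single library and hold a searched motif. That they share it therefore follows from the choice. Mrpl3 met the same rule with the motif below and Cox6a1 with one for the factor NRF1, and neither is shown. RefSeq promoters, 250 bases before to 50 after the annotated start, were found for 7055 of the 8711 genes tested. The coordinates below are those of GRCm38.p6, not of mm9, to which the reads were aligned. Capitals mark the letters CCGGAAGTG, the core bound by ETS factors such as GABP, or their reverse complement. Mtx2 lies on the plus strand (chr2:74825562-74825861) and holds the motif from 25 bases before the start and again from 6 bases after it. Timm10 (chr2:84826771-84827070, plus strand) holds it from 16 bases after the start. Dlst (chr12:85110583-85110882, plus strand) holds it on the opposite strand, from 1 base before the start.
Mtx2: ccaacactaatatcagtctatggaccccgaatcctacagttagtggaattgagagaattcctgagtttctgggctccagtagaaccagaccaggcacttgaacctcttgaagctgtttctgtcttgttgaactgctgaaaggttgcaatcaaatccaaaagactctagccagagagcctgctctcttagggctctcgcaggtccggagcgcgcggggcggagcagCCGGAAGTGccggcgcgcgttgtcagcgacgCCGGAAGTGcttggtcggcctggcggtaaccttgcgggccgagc
Timm10: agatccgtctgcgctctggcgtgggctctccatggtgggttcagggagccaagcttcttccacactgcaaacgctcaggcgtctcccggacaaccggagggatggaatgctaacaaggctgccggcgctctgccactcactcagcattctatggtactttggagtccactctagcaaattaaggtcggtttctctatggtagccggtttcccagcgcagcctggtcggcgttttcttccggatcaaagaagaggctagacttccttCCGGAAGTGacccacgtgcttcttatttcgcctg
Dlst: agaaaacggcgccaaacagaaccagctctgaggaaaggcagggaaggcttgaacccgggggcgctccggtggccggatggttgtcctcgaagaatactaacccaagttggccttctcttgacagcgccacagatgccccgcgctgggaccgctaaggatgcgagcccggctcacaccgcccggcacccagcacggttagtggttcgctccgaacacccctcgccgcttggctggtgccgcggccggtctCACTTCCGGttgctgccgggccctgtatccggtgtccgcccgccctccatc
The motif was searched on both strands and was present in 10 of 52 called-higher members of the mitochondrial lists (19.2%), in 21 of 218 genes called higher (9.63%) and in 1 of 184 called lower (0.543%). Among all 7055 promoters 391 held it (5.54%). The mitochondrial lists include those of coenzyme Q, iron-sulfur, import and complex IV assembly genes, which were drawn up after the calls had been seen. The share among members of these lists that were not called was not counted. Whether the motif goes with the rise or with mitochondrial genes at large was therefore not tested. A palindromic core of 10 letters for the factor NRF1 was present in 3 of the 52 (5.77%) and in 177 of the 7055 promoters (2.51%). The ERR motif TCAAGGTCA was present in 1 of the 52 (1.92%) and in 16 of the 7055 (0.227%).

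Some enzymes that handle reactive oxygen and fatty acids were also higher. Sod2, the superoxide dismutase of the matrix, ran from 1160 to 1896 CPM in 3P10 (median 1534) and from 683 to 1089 CPM in NTB (median 918). The groups were apart, and Sod2 rose by 0.77, SE 0.13, adjusted p = 0.00423. Among 22 antioxidant genes, a list drawn up after the calls had been seen, 7 rose, including Prdx1 (0.65), a peroxidase of the cytosol, and catalase, Cat (0.39), whose call ended without at least 1 single library. Suox, the sulfite oxidase of mitochondria, ran from 13.6 to 24.5 CPM in 3P10 (median 19.6) and from 3.68 to 13.2 CPM in NTB (median 8.52), without overlap, and rose by 1.16, SE 0.25, adjusted p = 0.0140. The Suox gap rests on few reads, with 14 in the lowest 3P10 library and 13 in the highest NTB library. In fatty acid beta-oxidation 5 of 25 rose with a list median of 0.14. The long-chain dehydrogenase gene Acadl of that pathway ran from 4032 to 4740 CPM in 3P10 (median 4251) and from 3339 to 3743 CPM in NTB (median 3510), and rose by 0.29, SE 0.07, adjusted p = 0.0177. Hadh, which oxidises shorter hydroxyacyl chains, rose by 0.47. Of 24 peroxisome genes, a list of the same late kind, 6 rose, and the transporter gene Abcd3 (0.45) kept its call without any single library.

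Some adipocyte genes were higher too. Of 22 identity and adipokine genes 5 rose, with a median of 0.17, and of 18 fatty acid synthesis genes 3 rose, with a median of 0.29. Cebpa, a transcription factor of adipocyte formation, ran from 281 to 411 CPM in 3P10 (median 328) and from 166 to 265 CPM in NTB (median 235). Every 3P10 library lay above every NTB library, and Cebpa rose by 0.57, SE 0.13, adjusted p = 0.0177, a call that ended at adjusted p = 0.0504 without NTB replicate 4 and also without 3P10 replicate 3. Plin1, the perilipin that coats lipid droplets, rose by 0.42 (adjusted p = 0.0268, up to 0.0648 without 3P10 replicates 3, 4 or 6 or NTB replicate 3). Acacb, the mitochondrial acetyl-CoA carboxylase that makes malonyl-CoA, rose by 0.33 (SE 0.08), and its call ended without 3P10 replicate 6 (adjusted p = 0.0658) or NTB replicate 1.

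Transcript length moved with these results. With the genes tested divided into 4 bins of about equal size by transcript length, the median log2 fold change was 0.034 in the shortest, 0.026 in the next, -0.0060 in the next and -0.065 in the longest. The shortest bin held 89 genes called higher and 41 called lower, and the longest 40 called higher and 81 called lower. The cytosolic ribosomal protein genes had a median of -0.012. The part of length in the mitochondrial result was not tested.

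**Figure D3:**
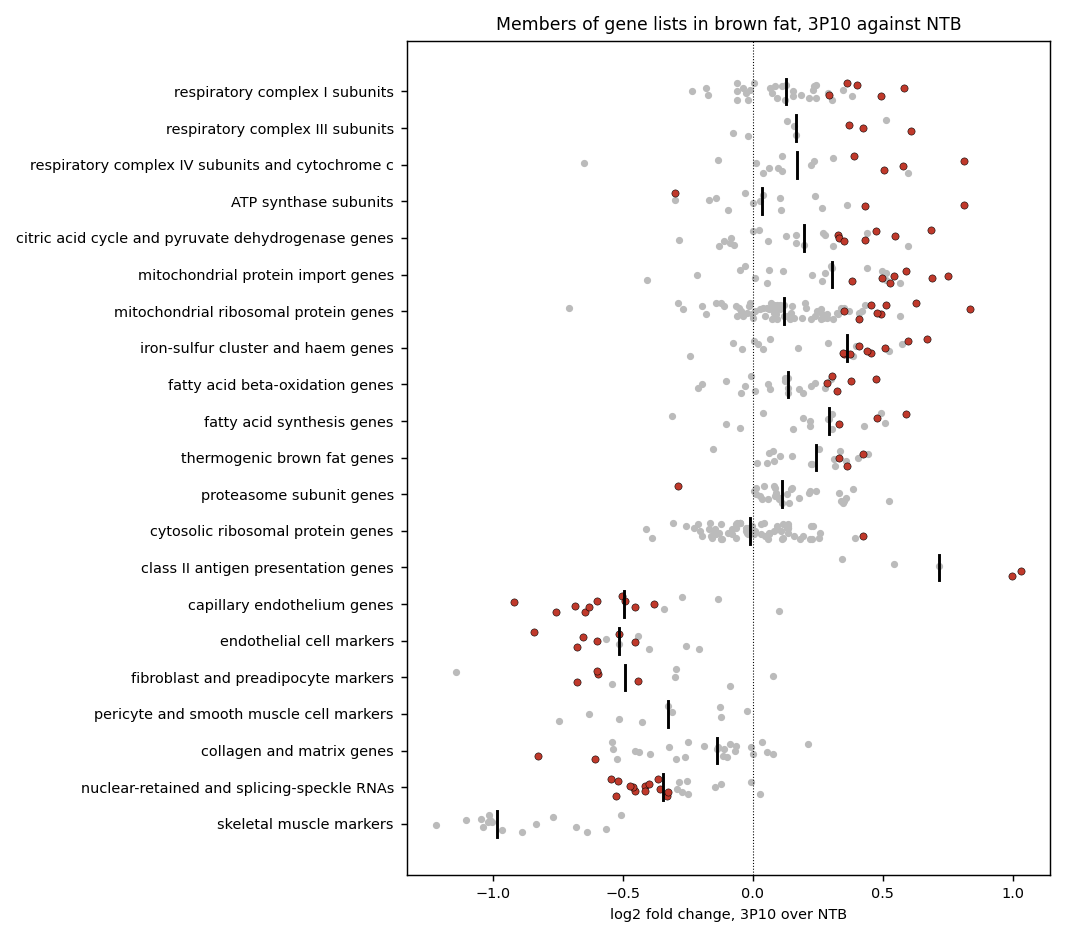
Log2 fold change of 3P10 over NTB (x axis) for each tested member of 21 gene lists (rows), in red where called and grey where not, with a black line at the list median. Medians run from 0.72 for class II antigen presentation to -0.98 for skeletal muscle markers, whose points are all grey.

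On the lower side stood genes of blood vessels. Of all genes tested 2.72% were called lower, a share that stands beside each count of fallen list members below. Of 12 endothelial markers tested 6 fell, all 12 had negative log2 fold changes, and the list median was -0.51. Tek, the angiopoietin receptor, ran from 25.9 to 36.9 CPM in 3P10 (median 29.5) and from 49.7 to 58.1 CPM in NTB (median 54.1), without overlap. It fell by 0.84, SE 0.15, adjusted p = 0.00508. Cdh5, the cadherin of endothelial junctions, ran from 106 to 176 CPM in 3P10 (median 126) and from 178 to 242 CPM in NTB (median 208), also apart, and fell by 0.65 (SE 0.15, adjusted p = 0.0160). The junction gene Esam fell by 0.68 (SE 0.14). The receptor gene Notch1 ran from 38.0 to 76.8 CPM in 3P10 (median 59.1) and from 77.7 to 119 CPM in NTB (median 87.2), and fell by 0.68, SE 0.15, adjusted p = 0.0140. Its ligand gene Dll4 fell by 0.88, SE 0.25, adjusted p = 0.0405, with a call that ended without 7 single libraries, at up to 0.132 without NTB replicate 4. With the skeletal muscle sum as a covariate Tek, Cdh5, Esam and Notch1 had adjusted p values of 0.0159, 0.0251, 0.0342 and 0.0199, and those of Egfl7 and Flt1 were 0.0631 and 0.0619. The calls of Egfl7 and Flt1 also ended without 4 and 5 single libraries.

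Among genes typical of capillaries, a list drawn up after the calls had been seen, 10 of 14 fell, with a median of -0.50. Gpihbp1 holds lipoprotein lipase on the capillary wall. It ran from 148 to 214 CPM in 3P10 (median 175) and from 212 to 361 CPM in NTB (median 256), with 1 NTB library just inside the 3P10 range, and fell by 0.63, SE 0.12, adjusted p = 0.00673. Cd300lg, a lipid-binding protein of capillaries, ran from 107 to 141 CPM in 3P10 (median 131) and from 145 to 226 CPM in NTB (median 199), without overlap, and fell by 0.60, SE 0.11, adjusted p = 0.00650. The carbonic anhydrase gene Car4 ran from 73.4 to 139 CPM in 3P10 (median 93.0) and from 115 to 186 CPM in NTB (median 156), with 1 3P10 library above the lowest 2 NTB libraries, and fell by 0.65, SE 0.13, adjusted p = 0.0112. Timp4, a protease inhibitor, ran from 98.1 to 138 CPM in 3P10 (median 122) and from 142 to 376 CPM in NTB (median 216), again apart, and fell by 0.92, SE 0.17, adjusted p = 0.00684. In each of the 4 genes the median of 3P10 lay below the lowest NTB library. Summed endothelial markers ran from 1269 to 1816 CPM in 3P10 and from 1751 to 2721 CPM in NTB.

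Some stromal genes fell beside them. Of 10 fibroblast and preadipocyte markers 4 fell, with a median of -0.49, and of 27 collagen and matrix genes 2 fell, with a median of -0.14. Those 2 were Timp2, an inhibitor of matrix proteases, and Fstl1, a secreted glycoprotein. Timp2 ran from 72.9 to 91.3 CPM in 3P10 (median 89.4) and from 104 to 163 CPM in NTB (median 133), without overlap, and fell by 0.61 (SE 0.11, adjusted p = 0.00650). Fstl1 ran from 17.5 to 23.1 CPM in 3P10 (median 19.5) and from 24.5 to 48.7 CPM in NTB (median 35.3), again apart, and fell by 0.83 (SE 0.18, adjusted p = 0.0150). The actin-binding protein gene Cnn3 had the smallest adjusted p of the lower genes. It ran from 27.6 to 43.1 CPM in 3P10 (median 30.6) and from 50.7 to 79.1 CPM in NTB (median 66.4), and fell by 1.02 (SE 0.14, adjusted p = 0.00168). Il11ra1, the interleukin 11 receptor chain, fell by 0.79 (SE 0.12, adjusted p = 0.00230). The 9 pericyte and smooth muscle markers tested had a median of -0.33 and did not pass.

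Insulin and IGF signalling had 3 of 19 genes lower, and all 3 were apart between the groups. Of all genes tested, 2.72% were called lower and 1.39% were apart and lower in 3P10. Igfbp5, which binds insulin-like growth factors, ran from 139.7 to 233 CPM in 3P10 (median 189.7) and from 282 to 422 CPM in NTB (median 363), and fell by 0.89, SE 0.17, adjusted p = 0.00813. Igf1r, the receptor gene, ran from 31.3 to 51.2 CPM in 3P10 (median 43.3) and from 54.8 to 82.6 CPM in NTB (median 65.8), and fell by 0.67, SE 0.13, adjusted p = 0.00833. The adaptor gene Grb10, which restrains insulin receptor signalling, fell by 0.73, SE 0.17, adjusted p = 0.0177, and its call ended without NTB replicate 4 (adjusted p = 0.0569). The list median was -0.023, close to that of all genes.

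Among the 12 largest falls at a mean of at least 5 CPM were Epha4, Ncam1 and Hecw2. Epha4, an ephrin receptor, ran from 2.92 to 13.4 CPM in 3P10 (median 9.21) and from 14.2 to 31.9 CPM in NTB (median 23.8), without overlap, and fell by 1.43, SE 0.32, adjusted p = 0.0146. Ncam1, a neural adhesion molecule, ran from 2.92 to 6.49 CPM in 3P10 (median 3.46) and from 8.11 to 11.4 CPM in NTB (median 9.77), and fell by 1.24, SE 0.27, adjusted p = 0.0140. The lower ends of these ranges are near the level of a few reads. Ncam1 held 3 to 9 reads per 3P10 library and passed the low-count filter only through NTB and IgG1 libraries. With the compared libraries alone it did not pass and was not tested. Hecw2, a ubiquitin ligase, ran from 11.7 to 24.9 CPM in 3P10 (median 17.1) and from 25.1 to 61.4 CPM in NTB (median 37.2), and fell by 1.17, SE 0.21, adjusted p = 0.00562. In the other direction Dag1, the dystroglycan that links cells to the basement membrane, ran from 478 to 676 CPM in 3P10 (median 581) and from 338 to 425 CPM in NTB (median 389), and rose by 0.59, SE 0.09, adjusted p = 0.00230.

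Immune genes held calls in both directions. In a list of recruited macrophage genes 2 of 5 tested rose, with a median of 0.14, and in a list of resident macrophage genes 3 of 9 tested fell, with a median of -0.50, and 3 of the 9 had positive values. Both lists were drawn up after the calls had been seen, and whether they differ was not tested. Gpnmb, a glycoprotein of lipid-laden macrophages, ran from 1.02 to 13.4 CPM in 3P10 and from 0 to 1.48 CPM in NTB, and no fold is given because NTB lay under the level of 3 reads. Ccr2, the chemokine receptor of monocytes, ran from 27.4 to 39.2 CPM in 3P10 (median 30.7) and from 4.91 to 19.6 CPM in NTB (median 14.04), without overlap, and rose by 1.24, SE 0.23, adjusted p = 0.00673. H2-Aa, a class II chain that presents antigen, ran from 22.4 to 45.7 CPM in 3P10 (median 30.0) and from 7.36 to 20.3 CPM in NTB (median 16.9), and rose by 0.998, SE 0.24, adjusted p = 0.0219. That call ended without 3P10 replicate 6 or NTB replicate 4 (adjusted p = 0.0578). Of 9 class II genes listed 5 passed the low-count filter, and their median was 0.72. Cd209f, a lectin of resident macrophages, ran from 1.66 to 5.83 CPM in 3P10 (median 4.73) and from 6.54 to 13.5 CPM in NTB (median 9.40), also apart, and fell by 1.196, SE 0.28, adjusted p = 0.0179. Without 3P10 replicate 3 its adjusted p was 0.0559. Cd209f held 2 to 8 reads per 3P10 library, and it passed the low-count filter only through NTB and IgG1 libraries. The same holds for Lyve1, and neither gene passed the filter with the compared libraries alone. Retnla, a product of alternatively activated macrophages, and Lyve1, a receptor of lymphatic vessels and some resident macrophages, fell by 1.19 and 1.48, with calls that ended without 7 and 9 single libraries (adjusted p up to 0.102 and 0.119). Summed macrophage markers ran from 142 to 174 CPM in 3P10 and from 115 to 157 CPM in NTB, and T, B and natural killer cell markers did not pass the low-count filter.

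**Figure D4:**
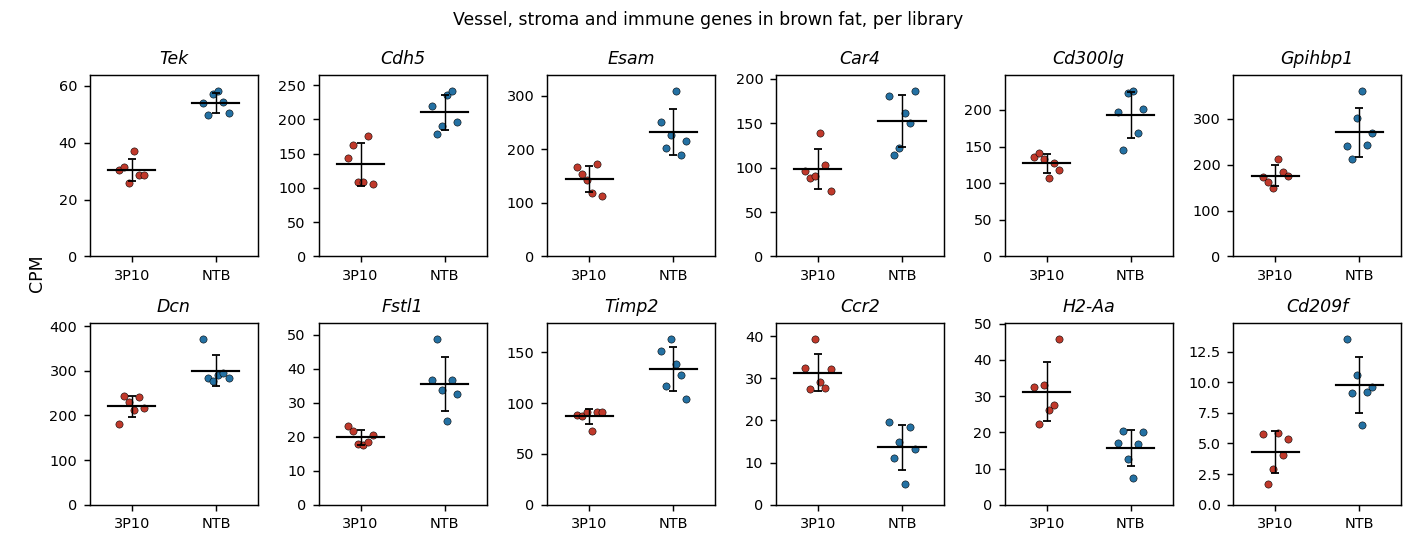
Level in CPM (y axis, from 0) of 12 vessel, stroma and immune genes in each of the 6 3P10 libraries (red) and 6 NTB libraries (blue), with lines at the mean and bars of 1 SD. Tek lies at 36.9 CPM or less in 3P10 and at 49.7 CPM or more in NTB, and Ccr2 at 27.4 CPM or more in 3P10 and at 19.6 CPM or less in NTB.

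Several RNAs that stay in the nucleus were lower. In a list of 22 such RNAs and splicing-speckle genes, drawn up after the calls had been seen, 13 fell, with a median of -0.35. Malat1, the abundant nuclear RNA, ran from 10300 to 14410 CPM in 3P10 (median 11130) and from 13650 to 19370 CPM in NTB (median 18170). The groups overlapped, with 1 3P10 library above the lowest 2 NTB libraries, and Malat1 fell by 0.53, SE 0.11, adjusted p = 0.0139. Ccnl2, a cyclin gene of nuclear speckles, ran from 238 to 262 CPM in 3P10 (median 249.8) and from 291 to 438 CPM in NTB (median 368), without overlap, and fell by 0.52, SE 0.10, adjusted p = 0.00650. Taf1d, a subunit of the RNA polymerase I machinery, fell by 0.67 (SE 0.11, adjusted p = 0.00287). The ribosomal precursor Rn45s took 2.84 to 4.65% of the counts in 3P10 and 3.83 to 6.16% in NTB, and gave a log2 fold change of -0.24 (adjusted p = 0.266). Its part, and that of transcript length, in the nuclear result was not tested.

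Adrenergic and thermogenic genes were set beside the IgG1 group. The 3 comparisons share libraries, so their values are given side by side. Adrb1, a beta-adrenergic receptor gene, gave 0.36 in 3P10 against NTB (adjusted p = 0.173) and -0.66 in IgG1 against NTB (adjusted p = 0.0450), and ran from 85.7 to 153 CPM in 3P10 and from 72.8 to 108 CPM in NTB, with overlap. Ppargc1a, a coactivator of mitochondrial genes, gave 0.10 in 3P10 against NTB (adjusted p = 0.718) and 0.24 in IgG1 against NTB (adjusted p = 0.433). The deiodinase gene Dio2 ran from 135 to 844 CPM in 3P10 and from 221 to 1027 CPM in NTB, with a value of -0.15 ± 0.38 (SE) at adjusted p = 0.850, against 1.72 in IgG1 over NTB. Cdkn1a, the cell cycle inhibitor, ran from 35.9 to 116 CPM in 3P10 and from 44.6 to 99.0 CPM in NTB, and gave -0.07, SE 0.39, adjusted p = 0.943, against 2.21 in IgG1 over NTB. For both genes the error of the 3P10 value is wide, so a missed threshold does not show equal levels. Of 20 thermogenic genes 19 had positive log2 fold changes in 3P10 against NTB, and the median was 0.24, against -0.0022 over all genes tested. Called higher were 3, namely Letmd1 (0.43), Otop1 (0.36) and Cidea (0.33), where 3.03% of all genes tested were called higher. Letmd1 kept its call in 17 of 17 omissions of a single library and Cidea in 13 of 17. Otop1 kept its call in 9 of 17 and in 5 of 8 other settings.

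Genes that differ from NTB in 3P10 lay in different places in IgG1. Sod2 averaged 1511 ± 284 CPM in 3P10, 830.3 ± 129.9 CPM in IgG1 and 884 ± 148 CPM in NTB (SD, n = 6, 5 and 6), and its IgG1 over NTB value was -0.09 (adjusted p = 0.796). Likewise Chchd10, Cox6a1, Car4 and Taf1d gave 0.02, 0.04, -0.01 and 0.00 in IgG1 over NTB (adjusted p = 0.852 to 0.999). Mdh1 rose in both, by 0.70 in 3P10 and by 0.51 in IgG1 (adjusted p = 0.0185), and Igfbp5 fell by 0.89 in 3P10 and by 0.99 in IgG1 (adjusted p = 0.00686). Of 22 glucocorticoid response genes tested 1 was called higher (Mt2) and 1 lower (Zbtb16). The list median was -0.038, with 10 positive and 12 negative values. Its members Fkbp5 and Zbtb16 had medians of 12.1 and 21.7 CPM in 3P10 against 16.2 and 51.5 CPM in NTB. They gave -1.44 (adjusted p = 0.146) and -1.81 (adjusted p = 0.0323) in 3P10 against NTB. In IgG1 against NTB they gave 1.45 and 0.81, and the Zbtb16 value did not pass (SE 0.43, adjusted p = 0.345). In Fkbp5 every 3P10 library lay below every NTB library, and NTB replicate 4 stood alone at 94.9 CPM. The Zbtb16 call ended without 6 single libraries, with adjusted p = 0.137 without NTB replicate 4. The test of IgG1 against NTB called 259 genes (2.97%), 162 higher (1.86%) and 97 lower (1.11%). That of 3P10 against IgG1 called 1013 genes (11.6%), 527 higher (6.05%) and 486 lower (5.58%).

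**Figure D5:**
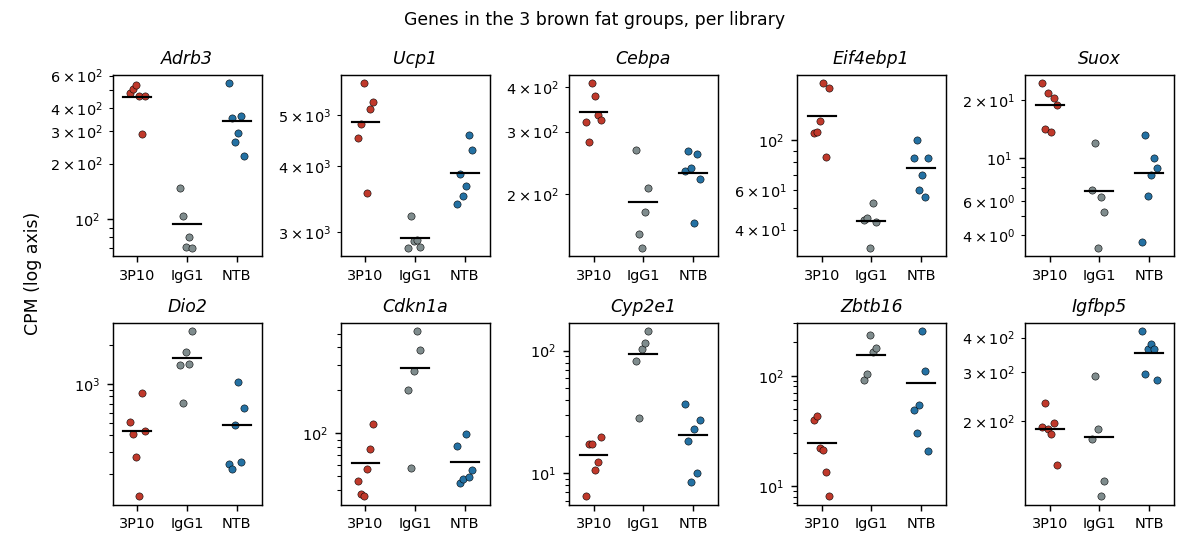
Level in CPM (y axis, log scale) of 10 genes in the 6 3P10 (red), 5 IgG1 (grey) and 6 NTB (blue) brown fat libraries, with lines at the mean. In Igfbp5 the 3P10 libraries lie at 233 CPM or less and the NTB libraries at 282 CPM or more. In Suox the 3P10 libraries lie at 13.6 CPM or more and the NTB libraries at 13.2 CPM or less, a gap of few reads.

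The same contrast in the other tissues gave 0 genes called by edgeR, of 14402 tested in white fat (0%) and of 13283 in gastrocnemius muscle (0%), each with 5 libraries per group. At an unadjusted p under 0.05 in the edgeR test there were 542 in white fat and 563 in muscle. Both counts lie below a share of 0.05 of the genes tested, which chance alone gives. DESeq2 called 19 and 15 genes. On simulated data the edgeR fit recovered 69.7% of 2-fold changes in white fat, 65.7% in muscle and 92.2% in brown fat. Of 1.5-fold changes it recovered 14.1, 13.4 and 46.2%. Most brown fat calls were smaller than 2-fold, and the simulation gave genes no spread of their own. The 0 calls in white fat and muscle therefore do not show equal levels. Ccr2 gave 0.84, SE 0.25 (adjusted p = 0.894) in white fat and 0.61, SE 0.28 in muscle. Igfbp5 gave -0.54, SE 0.32 in white fat and -0.69, SE 0.29 in muscle, with each 3P10 library below the NTB mean in both. Sod2 gave -0.04, SE 0.32 in white fat and -0.11, SE 0.13 in muscle, and Tek -0.02, SE 0.23 and -0.28, SE 0.19. These libraries were made with another kit and held 18.6 to 80.7 M counts in white fat and 24.8 to 33.5 M in muscle, and the difference between tissues was not tested.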

How the data were processed

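RNA of brown fat, white fat and gastrocnemius muscle was sequenced in 47 libraries. The values deposited by the authors are raw counts, whole numbers for each gene symbol and library, per the labels. Per the labels' protocols, brown fat libraries came from flash-frozen tissue through the QuantSeq kit for transcript 3-prime ends with a module for unique molecular identifiers, and the other tissues through a directional whole-transcript kit. Per the submitters' processing notes, the authors used Trim Galore, mm9, STAR 2.6.0a, featureCounts 1.6.2 and edgeR 3.22.3. Whether reads were collapsed by identifier, the annotation, the strand setting and the handling of reads that map to several places are not given in the sources used here. Counts of genes with processed pseudogenes or antisense partners are therefore uncertain.

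The 17 brown fat libraries were fitted with R 4.3.3 and edgeR 4.0.16 in 1 quasi-likelihood model of 3 groups, with TMM factors and filterByExpr (minimum count 10, minimum total 15). White fat and muscle were fitted apart in the same way. The brown fat fit left 14 residual degrees of freedom and the other fits 12. Tests were 2-sided, with Benjamini-Hochberg adjustment over all genes tested and a threshold of 0.05. The labels do not say that libraries came from separate animals, so p-values measure the spread between libraries. No libraries looked like copies of each other, since the lowest chi-square per degree of freedom between replicates was 2.33. A gene with 0 reads could lie at up to 3 counts, and this floor covers counting error only. On simulated data for 3P10 against NTB the fit recovered 92.2% of 2-fold and 46.2% of 1.5-fold changes in brown fat (8528 genes). It recovered 69.7 and 14.1% in white fat (14216 genes) and 65.7 and 13.4% in muscle (13147 genes). These shares are of changed genes that passed the filter. False calls were 12 of 164 in brown fat, 6 of 124 in white fat and 5 of 122 in muscle. The simulation gave each gene the spread typical of its level, with no spread of its own and no outlying libraries.

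The members, the 41 gene lists and the tests were chosen with earlier results of these data known, and 13 further lists were drawn up after the calls had been seen. Named genes were, in 3P10 against NTB, the 12 largest rises and 12 largest falls among called genes with a mean of at least 5 CPM, the 6 smallest adjusted p in each direction, from each list with at least 2 called members the 4 of lowest adjusted p, and a panel of 13 genes. The text gives a part of them. Other genes named, mainly members of the later lists, were chosen after their values were seen. Medians over lists carry no test. Counts over lists include 1 gene that is not reported here. Alternatives were DESeq2 1.42.0, RLE factors, no low-count filter, at least 1 CPM in 5 libraries, the compared libraries alone, a replicate block, totals without Rn45s, a muscle covariate and each library left out.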

Additional observations from a re-analysis of the deposited data

Results flagged for a closer look

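Values far from the rest of their group were looked for in 242 groups of 6 values, from the brown fat 3P10 or NTB libraries. Of these groups 24 held a value that stood out, where chance alone gives about 1 in 20. The library of 3P10 replicate 3 held 2.46 M counts, and its summed nerve and Schwann cell markers reached 424.6 CPM. NTB replicate 4 stood apart in 7 genes, with 1.636 CPM of H2-Eb1, 49.08 CPM of 5930430L01Rik, 61.35 CPM of Hecw2, 405.8 CPM of Flt1, 80.17 CPM of Grb10, 26.18 CPM of Cyp2b10 and 94.9 CPM of Fkbp5. NTB replicate 2 stood apart in 6, with 243.4 CPM of Mt2, 559.7 CPM of Idh3b, 914.6 CPM of Pdhb, 202.8 CPM of Hspe1, 43.6 CPM of Esrrg and 1149 CPM of Acaca, each the highest of its group. NTB replicate 1 stood apart with 45.39 CPM of Retnla, 691.9 CPM of Lipe and 370.5 CPM of Dcn, and NTB replicate 6 with 64.27 CPM of Ssr2. Among 3P10 libraries, replicate 2 stood apart with 10.78 CPM of Dpysl3 and 277 CPM of Opa1, replicate 4 with 72.87 CPM of Timp2, and replicate 5 with 91.12 CPM of Tspan7 and 289.7 CPM of Adrb3.

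In 3 genes every 3P10 library lay on 1 side of the NTB mean in brown fat and on the other side in another tissue. Dlst gave 0.33 in brown fat and -0.09663 in muscle. For Mrpl4 the brown fat value was 0.63 and the white fat value -0.2895. For Mrps22 they were 0.45 and -0.3068. The difference between tissues was not tested.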

How the results depend on the processing

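In brown fat the count of 501 genes was 587 with DESeq2, 495 with RLE factors, 455 without a low-count filter, 429 with at least 1 CPM in 5 libraries, 500 with the compared libraries alone and 518 without Rn45s in the totals. With the muscle marker sum as a covariate it was 323. Leaving out 1 library gave 172 to 675 genes. The replicate numbers do not pair the libraries (correlations of deviations from -0.132 to 0.0807, and no 3P10 library matched its own number best), and with a replicate block 340 genes were called, 323 of them among the 501. Of genes changed at least 2-fold there were 25, against 8 with DESeq2 and 41 without a filter. The share of calls that were higher ran from 45.5 to 58.0% over these settings and was 52.7% in the fit described. White fat gave 0 genes with edgeR and 19 with DESeq2, and muscle 0 and 15. The cause of these shifts was not tested. The values of 2 genes that were not called changed sign without single libraries. Cdkn1a ran from -0.35 to 0.12 with 1 library left out and was above 0 without 3P10 replicates 2 (0.037) or 3 (0.074) or NTB replicates 1 (0.0063) or 4. Dio2 ran from -0.45 to 0.22 and was above 0 without 3P10 replicate 4 (0.028) or NTB replicate 4. Of 99 named and called genes 45 kept their call in every omission of a single library in which they passed the low-count filter. Among these 45, Elmod1 passed it in 8 of the 17 omissions and Ncam1 in 14. At 0.799 to 2.46 M counts, brown fat depth limited the test to 8711 genes.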

Other observations

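Smaller groups of genes that belong to none of the groups above also held calls in 3P10 against NTB by edgeR's quasi-likelihood test, and the genes named here were chosen after their values were seen. Of 13 subunits of the V-ATPase, the proton pump of lysosomes, 4 rose, namely Atp6v0e (0.45), Atp6v1b2 (0.44), Atp6v1h (0.40) and Atp6v1a (0.36), with a list median of 0.10. Of 7 propionate genes 3 rose, namely Pcca (0.55), Pccb (0.30) and Mcee (0.38), whose products turn propionyl-CoA toward succinyl-CoA. Both lists were drawn up after the calls had been seen, and the call of each of these 7 genes ended without at least 1 single library. Endoplasmic reticulum genes went both ways. Pdia6, a disulfide isomerase, ran from 431 to 609 CPM in 3P10 (median 482) and from 276 to 444 CPM in NTB (median 347), with overlap, and rose by 0.49, SE 0.11, adjusted p = 0.0148. Dnajb9 (0.51) and Ssr2 (0.57) rose, and Hsp90b1, the chaperone GRP94, fell by 0.30, among 22 tested. The Ssr2 call ended without NTB replicate 4 (adjusted p = 0.0521). The Dnajb9 call ended without 6 single libraries, at up to 0.0734, and the Hsp90b1 call without 8, at up to 0.0847, and also with no low-count filter and with the filter of 1 CPM in 5 libraries.

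Mt2, a metallothionein, ran from 188 to 421 CPM in 3P10 (median 241) and from 111 to 243 CPM in NTB (median 144). It rose by 0.91, SE 0.23, adjusted p = 0.0235, with overlap, and its call ended without 3P10 replicates 3 or 6 or NTB replicates 3 or 4. Pck1, which in fat makes glycerol phosphate for triglyceride, ran from 2382 to 5842 CPM in 3P10 (median 4152) and from 2003 to 3620 CPM in NTB (median 2370), and rose by 0.73, SE 0.21, adjusted p = 0.0412, a call that ended without at least 1 single library. In glycolysis Pfkl rose by 0.44 and Tpi1 fell by 0.25 among 17 genes tested. The Pfkl call ended without 5 single libraries, at up to 0.0848. The Tpi1 call ended without 15 of 17, at up to 0.13, and in 6 of 8 other settings.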
